A study of Mus musculus with 8 samples.

Results

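The response of hepatocytes to glucagon in the presence of the farnesoid X receptor (FXR) agonist GW4064 is described here. It rests on 4 of the 8 arrays of the series, chosen by their titles and paired by experiment number: 2 arrays of cells given 100 nM glucagon together with 2 µM GW4064, and 2 arrays of cells given 2 µM GW4064 alone. The other 4 arrays, 2 with 100 nM glucagon and 2 with the solvent DMSO, are used for the spread and are set beside it where stated. All cells were primary hepatocytes of male C57BL/6J mice, treated for 6 h, and all media held glucose at 1 g/l and 100 nM dexamethasone, a synthetic glucocorticoid, so the GW4064 and DMSO cells were also under glucocorticoid. Each experiment used 1 pool of hepatocytes from 3 mice, divided over the 4 treatments, with 2 technical replicates pooled per sample, so n = 2 in every group and the 2 arrays of a group are separate cell pools.

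Glucagon is the fasting hormone of the pancreatic islet. Its receptor on hepatocytes raises cyclic AMP, which activates protein kinase A, and the kinase acts on the transcription factor CREB and its CRTC coactivators. The programme is known for turning on gluconeogenesis, amino acid breakdown and urea synthesis, and for turning down the use of glucose. FXR (gene Nr1h4) is the nuclear receptor for bile acids. It is known for inducing bile salt exporters and the repressor SHP (gene Nr0b2) and for lowering bile acid synthesis.

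Levels are log2 signals of Affymetrix mouse gene arrays (MoGene 2.0 ST), and differences are glucagon plus GW4064 minus GW4064 on the log2 scale, so a difference of 1.00 is a doubling. The medians of the 8 arrays lay between 3.42 and 3.57. With 2 arrays per group, precision is set by how few arrays there are. The GW4064 array of experiment 2 stood apart. Its 40th percentile of signal, used below as the filter level for dim probe sets, was 3.27, against 3.13 to 3.17 on the other 7 arrays. Its median over 1405 probe sets of olfactory and vomeronasal receptor genes, which carry little signal in liver cells, was 3.25, against 2.95 to 2.98 elsewhere. The median difference of these receptor genes was -0.00 in experiment 1 and -0.27 in experiment 2. Each experiment's own difference is therefore given, and key results are repeated without that array. The repeat leaves 1 GW4064 array, that of experiment 1, so what passes there rests on 1 GW4064 sample. Hepatocyte RNA dominated all 4 arrays: the albumin gene Alb stood at 12.97 and 13.11 with glucagon plus GW4064, against 13.01 and 13.11 with GW4064.

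With GW4064 present, glucagon raised 97 of 13845 tested genes and lowered 50 (limma with experiment as a block, Benjamini-Hochberg adjusted p below 0.05). These are 0.701% and 0.361% of the genes tested, and together 1.06%. All 147 had the same sign in both experiments, against 58.8% of all tested genes. The calls were made from these same differences, so this is not a separate replication. Their median difference was 1.27 among the rises, 1.17 in experiment 1 and 1.26 in experiment 2, and -0.93 among the falls, -1.05 in experiment 1 and -0.90 in experiment 2. At least a doubling on average was seen in 69 of the 97 rises, and at least a halving in 24 of the 50 falls. The arrays of the groups did not overlap in 95 of the 97 rises and 47 of the 50 falls, which the selection of these genes favours. The share over all genes was not computed. The calls lean on the pairing: without the experiment block 22 rises and 1 fall, all among these, passed (0.166% of genes). Without the GW4064 array of experiment 2, 88 rose (0.636%) and 102 fell (0.737%), in all 1.37%, and 74 rises and 32 falls were shared with the full set. With predicted genes left out, of the 15 largest rises Pck1, G6pc, Ppargc1a, Nr4a3, Slc25a15, Aass, Slc7a2 and Tpbgl passed without the block, and of the 15 largest falls Egr1 did. Without the GW4064 array of experiment 2, Gas2l3, H2aw and Runx1 were the members of these 2 sets that did not pass (adjusted p = 0.0632, 0.0584 and 0.0525).

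**Figure D1:**
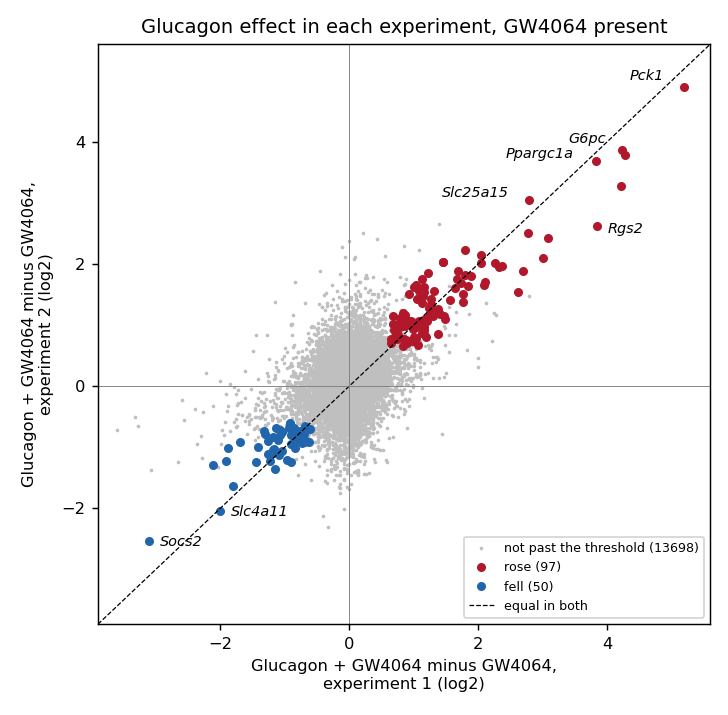
Difference between glucagon plus GW4064 and GW4064 (log2) in experiment 1 (x axis) and experiment 2 (y axis) for 13845 genes. Each point is a gene, red marks the 97 rises, blue the 50 falls and grey the rest, and the dashed line marks equal differences. The called genes lie in the upper right and lower left, with Pck1 farthest out.

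Over all genes the experiments were only partly alike. The differences of experiments 1 and 2 correlated across genes at r = 0.377 (Spearman's rho 0.279), a description in which genes are not independent replicates. For glucagon against DMSO in the same cell pools r was 0.596. A doubling or more was seen in 139 genes in experiment 1 and in 315 in experiment 2, and in 73 of them in both. A halving or more was seen in 174 genes and 176 genes, and in 19 in both. In experiment 2, 117 of the 176 were genes with a mean signal below 4, against 16 of the 174 in experiment 1. The median difference of genes between 4 and 6 was 0.13 in experiment 2, and in experiment 1 it was -0.00 and -0.04 in the same bins. The part of the raised low-end signal in these values was not tested.

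**Figure D2:**
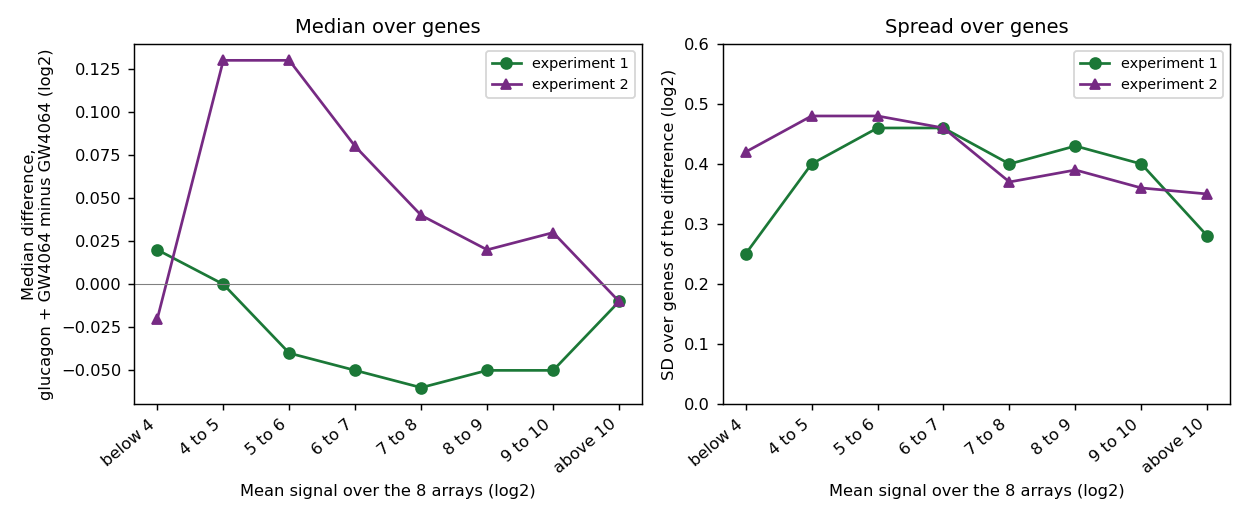
Median (left) and SD over genes (right) of the difference between glucagon plus GW4064 and GW4064 (log2) in bins of mean signal over the 8 arrays, one line per experiment. The experiments part at low signal: below 4 the SD was 0.42 in experiment 2 and 0.25 in experiment 1, and the medians of genes between 4 and 6 were higher in experiment 2.

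The gene lists used from here on were written with earlier results of these data known, so their shares called are descriptions. The share over all genes also includes many dim genes, with 4 rises and 0 falls among 4709 genes of mean signal below 4. Between 8 and 9 there were 17 rises and 9 falls among 1260 genes. Of 13 tested members of the list (glucagon receptor, adenylyl cyclases, protein kinase A and CRTC coactivators), 0 were called, which at 1.06% of all genes called is near the background. Their median difference was 0.07, against 0.01 over all genes. Gcgr, the glucagon receptor, stood at 5.40 and 5.63 with glucagon plus GW4064, against 5.01 and 5.28 with GW4064 (difference 0.37, SE 0.11, limma adjusted p = 0.185).

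Transcription factors that cyclic AMP is known to induce within the first hours split. Of 15 tested, 2 rose and 1 fell (20%, against 1.06% of all genes). In both experiments 7 were lower, against 3911 of all 13845 genes. The list median was -0.32. Nr4a3, an orphan nuclear receptor, stood at 7.23 and 7.05 with glucagon plus GW4064, against 3.01 and 3.77 with GW4064. Its difference was 4.22 in experiment 1 and 3.28 in experiment 2 (mean 3.75, SE 0.27, limma adjusted p = 0.00394). The GW4064 level of experiment 1 was below the filter level, so the difference is a lower limit. Nr4a1, of the same family, was at 6.24 and 6.33 with glucagon plus GW4064, against 4.51 and 4.64 with GW4064, a 3.27-fold rise (adjusted p = 0.00199). The groups of Nr4a3 and Nr4a1 were far apart. Nr4a2, also of this family, did not pass, with -1.25 in experiment 1 and 0.45 in experiment 2 (mean -0.40, limma adjusted p = 0.652). Egr1, an immediate early zinc finger factor, went the other way, at 4.18 and 4.32 with glucagon plus GW4064, against 5.99 and 5.94 with GW4064 (difference -1.72, SE 0.19, adjusted p = 0.0172). Egr1 was the 1 fall that passed without the block (adjusted p = 0.0497). Junb and Atf3, not past the threshold, differed by -0.95 and -0.76. Crem, a cyclic AMP-responsive repressor, differed by 0.32 (adjusted p = 0.294).

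Among genes that feed back on cyclic AMP signalling, 2 of 12 rose (16.7%, against 1.06% of all genes). Rgs2, which limits G protein signalling, stood at 7.57 and 8.39 with glucagon plus GW4064, against 3.73 and 5.76 with GW4064 (difference 3.23, SE 0.32, adjusted p = 0.0119; 0.262 without the block). A second, dimmer probe set of Rgs2 (mean signal 3.43) differed by -0.06 and 0.26, so the rise rests on the brighter one. Sik1, a salt-inducible kinase that restrains the CRTC coactivators, rose by 1.44 (1.13 in experiment 1, 1.75 in experiment 2, adjusted p = 0.029). The phosphodiesterase gene Pde10a differed by 0.72 (adjusted p = 0.0761).

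Ppargc1a, which encodes PGC-1α, the coactivator that drives gluconeogenic genes in fasting liver, stood at 6.91 and 7.59 with glucagon plus GW4064, against 3.08 and 3.90 with GW4064. The difference was 3.83 in experiment 1 and 3.68 in experiment 2, or 13.5-fold on average (SE 0.14, limma adjusted p = 6.49e-04; 0.0358 without the block). Its GW4064 level in experiment 1 was also below the filter level, so this too is a lower limit. The other 8 tested genes of the PGC-1 and ERR system were not called.

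Of 15 tested gluconeogenesis genes, 4 rose and 0 fell, or 26.7%, against 1.06% of all genes. The median of the list was 0.25. Pck1 (probe set 17380222), the cytosolic phosphoenolpyruvate carboxykinase, stood at 9.39 and 9.58 with glucagon plus GW4064, against 4.20 and 4.68 with GW4064. It was the largest rise among the called genes, 5.19 in experiment 1 and 4.90 in experiment 2 (33.0-fold on average, SE 0.26, adjusted p = 0.0012). G6pc (probe set 17256707), the glucose-6-phosphatase that frees glucose, stood at 10.16 and 9.89 with glucagon plus GW4064, against 5.94 and 6.03 with GW4064 (16.5-fold, SE 0.19, adjusted p = 0.0011). In both genes the arrays within a group lay close together, and without the GW4064 array of experiment 2 the adjusted p was 0.00531 for Pck1 and 0.00171 for G6pc. Got1 and Gpt2, aminotransferases that link amino acids to the pathway, rose by 1.14 and 0.82. Pyruvate carboxylase (Pcx) differed by -0.02, Fbp1, the fructose bisphosphatase, by 0.45 (adjusted p = 0.203), and the glucose-6-phosphate transporter gene Slc37a4 by -0.37.

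**Figure D3:**
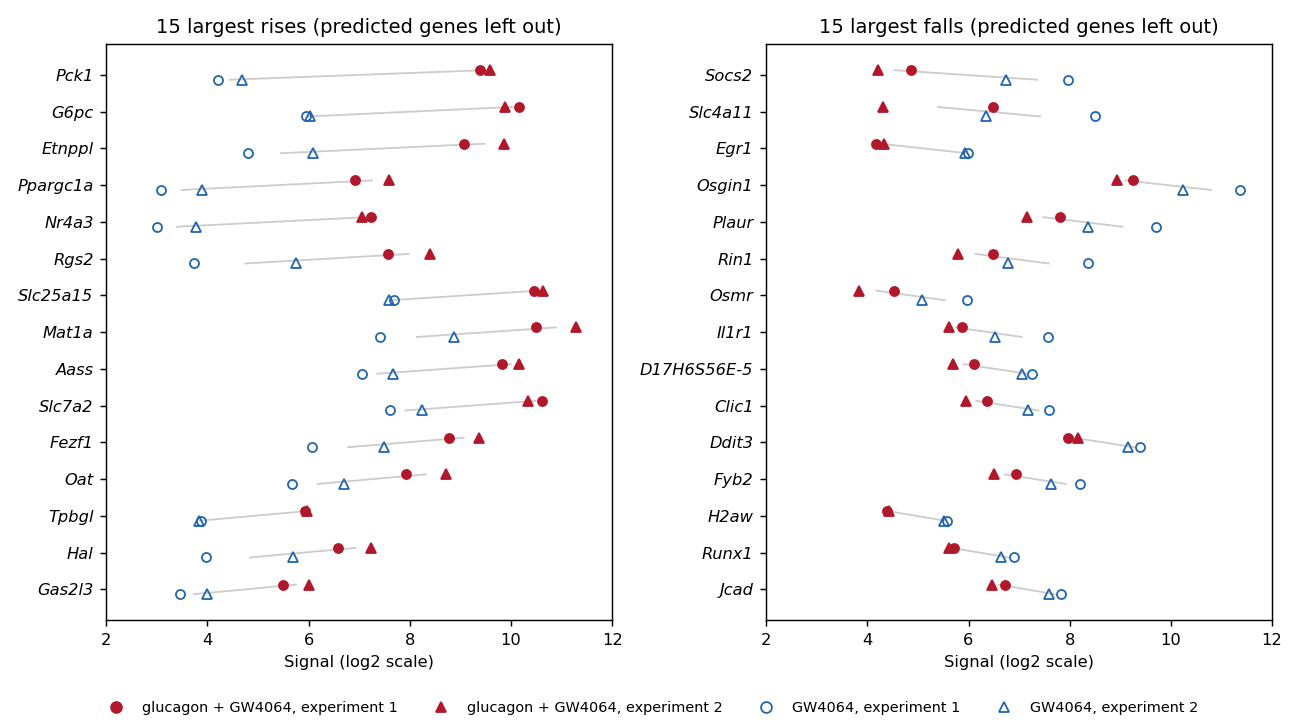
Log2 signal on each of the 4 arrays for the 15 largest rises (left) and the 15 largest falls (right), predicted genes left out. Filled red marks are glucagon plus GW4064, open blue marks are GW4064, circles are experiment 1, triangles are experiment 2, and grey lines join the group means. Pck1, at the top, had 9.39 and 9.58 against 4.20 and 4.68, and Slc4a11 is a fall in which the groups overlap.

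Promoter windows were searched for the response element of CREB, the known route from cyclic AMP to transcription, in 8 genes: Pck1, G6pc, Ppargc1a, Nr4a1, Nr4a3, Slc25a15, Irs2 and Cpt1a. The 4 that held its short form are shown. They are the 250 bases before the annotated start in RefSeq (GRCm38.p6), in 5′ to 3′ direction of the gene. Capitals mark the short form of the cyclic AMP response element (TGACG or CGTCA, that is both strands), and the full element TGACGTCA was in none of them.
Pck1, chr2:173152823-173153072, plus strand: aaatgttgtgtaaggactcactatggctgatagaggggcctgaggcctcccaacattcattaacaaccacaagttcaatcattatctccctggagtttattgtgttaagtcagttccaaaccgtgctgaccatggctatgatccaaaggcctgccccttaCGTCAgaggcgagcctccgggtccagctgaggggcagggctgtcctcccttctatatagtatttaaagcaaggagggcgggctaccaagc
Ppargc1a, chr5:51567726-51567975, minus strand: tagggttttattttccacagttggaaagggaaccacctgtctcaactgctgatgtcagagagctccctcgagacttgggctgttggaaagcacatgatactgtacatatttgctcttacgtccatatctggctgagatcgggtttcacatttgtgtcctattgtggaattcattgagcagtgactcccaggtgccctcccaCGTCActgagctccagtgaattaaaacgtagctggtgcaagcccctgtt
Nr4a1, chr15:101266596-101266845, plus strand: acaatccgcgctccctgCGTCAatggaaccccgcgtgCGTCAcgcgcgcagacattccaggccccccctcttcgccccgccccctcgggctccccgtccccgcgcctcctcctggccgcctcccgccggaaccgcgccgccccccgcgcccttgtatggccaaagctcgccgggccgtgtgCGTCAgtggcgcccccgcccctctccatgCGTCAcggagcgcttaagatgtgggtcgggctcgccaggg
Nr4a3, chr4:48045055-48045304, plus strand: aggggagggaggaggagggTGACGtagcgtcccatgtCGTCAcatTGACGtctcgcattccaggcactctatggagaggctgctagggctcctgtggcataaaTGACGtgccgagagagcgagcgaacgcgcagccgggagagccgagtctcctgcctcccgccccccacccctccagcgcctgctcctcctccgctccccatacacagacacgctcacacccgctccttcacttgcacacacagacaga
In Pck1 the short form lay 90 bases before the start, and in Ppargc1a it lay 49 bases before it. Nr4a1 and Nr4a3 had 4 of them each. G6pc, Slc25a15, Irs2 and Cpt1a, which also rose, had 0 in this window. The short form was in 16 of 80 rises with a window (20%) and in 10 of 39 falls (25.6%), against 27.4% of 10743 tested genes and 17.8% of all 32851 windows in the table. A match is a description of letters and does not show binding.

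Genes of nitrogen metabolism were among the largest rises. Of 10 tested urea cycle and nitrogen disposal genes, 4 rose (40%, against 1.06% of all genes). In both experiments 9 were higher, against 4235 of the 13845 tested genes, and the median was 0.55. Slc25a15 (probe set 17508036), the mitochondrial ornithine carrier, stood at 10.46 and 10.63 with glucagon plus GW4064, against 7.68 and 7.59 with GW4064. This is a 7.51-fold rise with 2.78 in experiment 1 and 3.04 in experiment 2 (SE 0.12, adjusted p = 6.49e-04). Oat, the ornithine aminotransferase, rose by 2.14, Arg1, the arginase that releases urea, by 1.34, and Slc25a13, the aspartate-glutamate carrier citrin, by 0.67. Of the enzymes of the first steps, Cps1 differed by 0.36, Otc by -0.05 and Ass1 by 0.97 (0.60 in experiment 1, 1.35 in experiment 2), none past the threshold.

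Of 26 genes in the amino acid breakdown list, 5 rose and 0 fell (19.2%, against 1.06% of all genes), with a median of 0.28. The 5 include Etnppl, whose substrate is not an amino acid. Etnppl, a phospholyase that breaks down phosphoethanolamine, stood at 9.08 and 9.87 with glucagon plus GW4064, against 4.81 and 6.08 with GW4064 (16.3-fold, SE 0.20, adjusted p = 0.0011; 0.104 without the block). Mat1a, the liver enzyme that makes S-adenosylmethionine from methionine, was at 10.49 and 11.29 with glucagon plus GW4064, against 7.41 and 8.87 with GW4064 (difference 2.75, adjusted p = 0.00912; 0.225 without the block). In both genes experiment 2 was the higher one under either treatment, and the groups did not overlap. Aass, which opens lysine breakdown, rose by 2.63 (2.77 in experiment 1, 2.50 in experiment 2), Hal, which opens histidine breakdown, by 2.07 (2.61 and 1.54), and Aldh4a1, of proline breakdown, by 1.74 (1.84 and 1.64). The tyrosine aminotransferase gene Tat was already high, at 12.26 and 12.26 with glucagon plus GW4064, against 11.26 and 11.75 with GW4064, and did not pass (difference 0.76, adjusted p = 0.105).

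Transport followed in part. Slc7a2, a carrier of arginine, lysine and ornithine, was the 1 rise among 14 amino acid transport genes (7.14%, against 1.06% of all genes). It stood at 10.61 and 10.34 with glucagon plus GW4064, against 7.61 and 8.24 with GW4064 (difference 2.55, adjusted p = 0.0218). Of 14 mitochondrial carriers, 3 rose (21.4%): Slc25a15, Slc25a13 and the glutamate carrier Slc25a22, by 1.79 and 1.81 in the 2 experiments. Fh1, the fumarase, was the 1 rise among 17 tricarboxylic acid cycle genes (5.88%), by 1.00 (adjusted p = 0.0262).

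Cpt1a, the gate of fatty acids into mitochondria, stood at 9.30 and 9.04 with glucagon plus GW4064, against 7.62 and 7.15 with GW4064 (3.45-fold, adjusted p = 0.00399), and was the 1 rise among 19 genes of fatty acid oxidation and ketogenesis (5.26%, against 1.06% of all genes, median 0.05). Angptl4 and Plin2, both induced by fatty acids through PPAR receptors, were lower but did not pass, with -1.18 and -0.61 (adjusted p = 0.0807 and 0.0802). Acacb, the acetyl-CoA carboxylase whose product inhibits Cpt1a, rose by 1.30 (adjusted p = 0.0133), and was the 1 call among 20 genes of fatty acid and triglyceride synthesis (5%).

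Of 18 cholesterol synthesis genes, 2 rose (11.1%, against 1.06% of all genes). Pmvk, the phosphomevalonate kinase, stood at 7.49 and 7.57 with glucagon plus GW4064, against 5.86 and 5.96 with GW4064 (3.08-fold, adjusted p = 0.00993). Cyp51, the lanosterol demethylase, rose by 1.26 (1.08 in experiment 1, 1.44 in experiment 2, adjusted p = 0.027). All 18 members had a positive mean difference and 17 were positive in both experiments, against 4235 of the 13845 tested genes. The list median was 0.57, 0.68 in experiment 1 and 0.58 in experiment 2, and Insig1, Hmgcs1 and Lss, not past the threshold, differed by 1.09, 0.92 and 0.80.

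Glucose use and insulin signalling showed scattered changes. Of 17 glycolysis genes 0 rose and 1 fell (5.88%, against 1.06% of all genes): Txnip, a regulator of glucose uptake (-0.83, adjusted p = 0.0415). Pklr, the liver pyruvate kinase, differed by -0.43 (adjusted p = 0.131), and 0 of the 13 listed glycogen genes passed, near the background of 1.06%. The list leaves out Gys1, the muscle-type glycogen synthase, which rose by 1.30 (adjusted p = 0.0106; named after its value was seen). Irs2, an adaptor of the insulin receptor, stood at 7.82 and 7.69 with glucagon plus GW4064, against 5.94 and 5.89 with GW4064 (3.59-fold, SE 0.16, adjusted p = 0.00898). Igf1 rose by 0.75 (adjusted p = 0.0485). Txnip and Igf1, and likewise Slc25a13 above and Prox1 below, did not pass without the GW4064 array of experiment 2 (adjusted p = 0.0617, 0.0772, 0.0603 and 0.0794). The remaining members of the 15 largest rises, predicted genes left out, which are in no list, were Fezf1, a transcription factor gene (2.29), Tpbgl (2.09) and Gas2l3, a cytoskeleton linker gene (2.03).

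Without that array the counts changed in 12 of 37 lists. Gluconeogenesis again had 4 rises, amino acid breakdown 5 and cholesterol synthesis 2, and the urea cycle list had 3 in place of 4. The ATF4 and unfolded protein response list had 3 falls in place of 2, and the FXR-induced list 2 in place of 1. The cyclic AMP-induced factors had 2 falls in place of 1, fatty acid oxidation and cholangiocyte markers 1 in place of 0, and glycolysis 0 in place of 1. Liver transcription factors had 1 fall and 0 rises, in place of 1 rise. Mitochondrial carriers had 2 rises in place of 3, insulin and growth hormone signalling 1 in place of 2, and organic anion and sterol transport 3 in place of 2. Sgk1, a kinase gene induced by glucocorticoids, differed by 1.72 with all arrays (2.28 in experiment 1, 1.16 in experiment 2, adjusted p = 0.0844). It passed without that array, in a fit that leaves 1 GW4064 array.

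**Figure D4:**
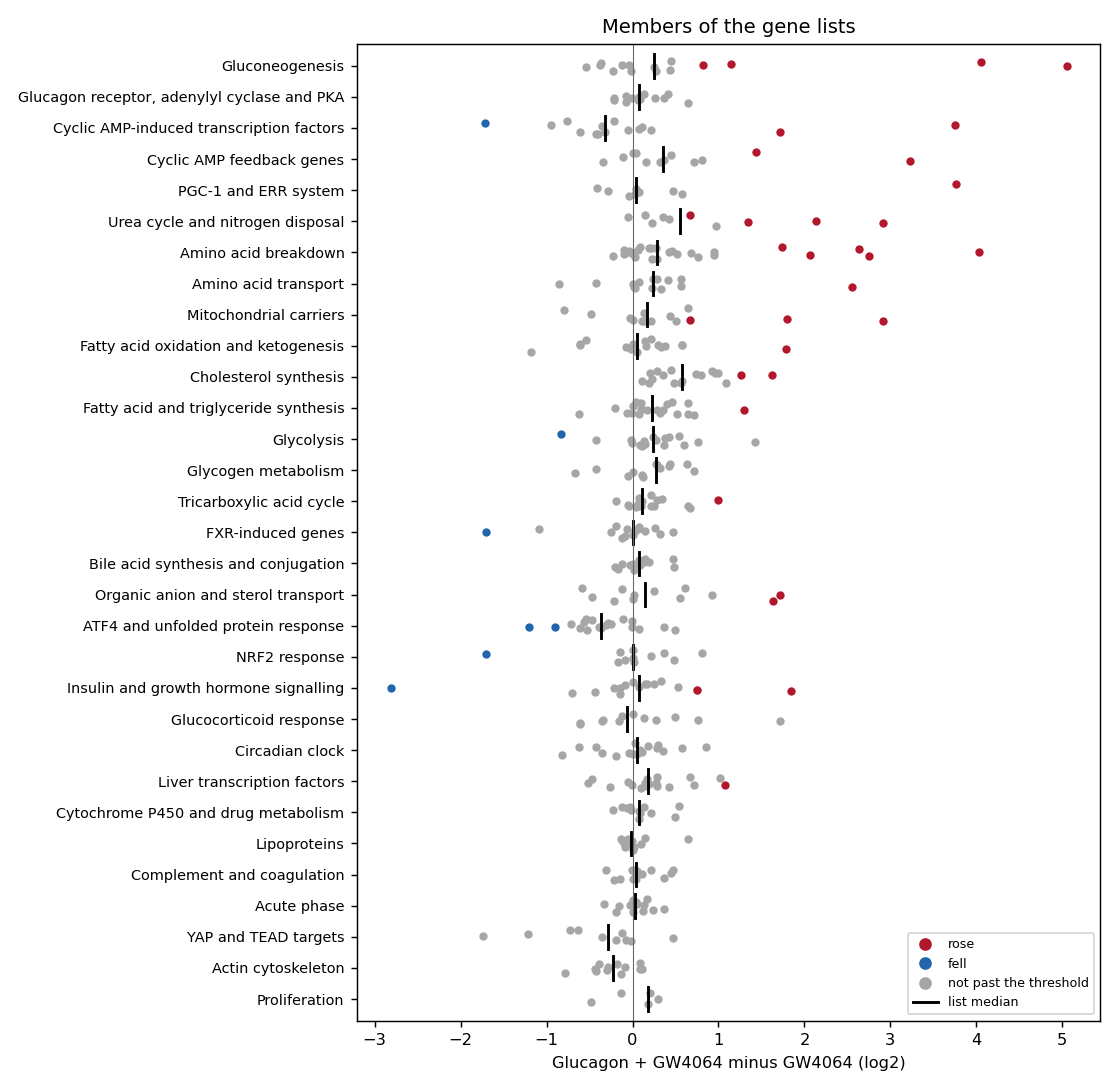
Difference between glucagon plus GW4064 and GW4064 (log2, x axis) for every tested member of each gene list (y axis). Red points rose, blue points fell, grey points did not pass the threshold, and black bars are list medians. The cholesterol synthesis bar stands at 0.57 and the bar of the ATF4 and unfolded protein response list at -0.37.

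Socs2, the suppressor of cytokine signalling that growth hormone induces, was the largest of the 50 falls. It stood at 4.87 and 4.22 with glucagon plus GW4064, against 7.97 and 6.75 with GW4064, 7.03-fold lower on average (-3.10 in experiment 1, -2.53 in experiment 2, SE 0.21, adjusted p = 0.00399; 0.094 without the block). A dimmer probe set of Socs2, with a mean signal of 3.65, differed by -0.79 and -0.03. Slc4a11, a membrane transporter, was next, at 6.49 and 4.30 with glucagon plus GW4064, against 8.50 and 6.34 with GW4064. Here the groups overlapped, and only within each experiment was the fall clear (-2.01 and -2.04, adjusted p = 0.00195; 0.566 without the block).

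Receptors of inflammatory signals were among the 15 largest falls. Il1r1, the interleukin 1 receptor, stood at 5.87 and 5.62 with glucagon plus GW4064, against 7.57 and 6.53 with GW4064 (-1.30, adjusted p = 0.0465). Osmr, the oncostatin M receptor, was at 4.53 and 3.84 with glucagon plus GW4064, against 5.97 and 5.09 with GW4064 (-1.34, adjusted p = 0.0141). Plaur, the urokinase receptor, fell by 1.57 on the log2 scale. Il17ra, an interleukin 17 receptor, lies outside the naming rule and was picked after its value was seen (-1.01, adjusted p = 0.047). No list of such receptors was tested, and none of these 4 passed without the block. The limma adjusted p was then 0.327 for Il1r1, 0.427 for Osmr, 0.429 for Plaur and 0.239 for Il17ra. Other called receptor genes went the other way. Il17rb, of the interleukin 17 receptor family, rose by 1.06 (limma adjusted p = 0.0229) and the chemokine receptor gene Ackr3 by 1.54 (limma adjusted p = 0.0156). Both were also picked after their values were seen. Without the block Ackr3 passed and Il17rb did not (limma adjusted p = 0.0358 and 0.707). Other falls were in Rin1, a RAS effector (-1.44), the chloride channel gene Clic1 (-1.22), D17H6S56E-5 (-1.25), Fyb2 (-1.19), H2aw (-1.13), the transcription factor gene Runx1 (-1.11) and Jcad (-1.11).

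Stress genes of the ATF4 and unfolded protein response were mostly lower. Of 19 tested, 0 rose and 2 fell (10.5%, against 1.06% of all genes). In both experiments 14 were lower, against 3911 of all 13845 genes. The median was -0.37, with -0.33 in experiment 1 and -0.37 in experiment 2. Ddit3, the proapoptotic factor CHOP, stood at 7.97 and 8.17 with glucagon plus GW4064, against 9.38 and 9.16 with GW4064 (-1.20, adjusted p = 0.0262). Ppp1r15a, the phosphatase subunit GADD34 that reverses the translation block, fell by 0.90 on the log2 scale (adjusted p = 0.0434). Neither passed without the block (adjusted p = 0.0719 and 0.104). Chaperone gene Hspa5 differed by -0.61 and the amino acid response gene Trib3 by -0.53, and neither passed.

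FXR targets were examined because both groups held the agonist. Of 15 FXR-induced genes 0 rose and 1 fell (6.67%, against 1.06% of all genes, median 0.01). Osgin1, which is also an NRF2 target, stood at 9.25 and 8.94 with glucagon plus GW4064, against 11.36 and 10.24 with GW4064, a fall of 2.11 in experiment 1 and 1.30 in experiment 2 on the log2 scale (adjusted p = 0.0442; 0.321 without the block). Beside it, Osgin1 was at 8.34 and 7.98 with glucagon, against 10.69 and 9.43 with DMSO. Abcb11, the bile salt exporter, was at 6.07 and 6.48 with glucagon plus GW4064, against 7.69 and 7.05 with GW4064 (-1.62 in experiment 1, -0.57 in experiment 2). It did not pass (limma adjusted p = 0.155). Without the GW4064 array of experiment 2 the difference of Abcb11 was -1.59, in a fit that leaves 1 GW4064 array. Nr0b2 was dim on all 4 arrays, at 3.94 and 3.87 with glucagon plus GW4064, against 4.23 and 3.76 with GW4064. Nr1h4 itself differed by -0.52 (adjusted p = 0.253), and 0 of 13 genes of bile acid synthesis and conjugation passed, near the 1.06% of all genes. Cyp7a1, the rate-limiting enzyme of that synthesis, was too dim to be tested, with a highest signal of 3.38 over the 8 arrays. Of 12 organic anion and sterol transporters, Slco1a4 and Slco2b1 rose (16.7% of the list), by 1.63 and 1.71. A second probe set of Slco2b1, below the filter level with a mean signal of 2.88, went the other way (-0.64 and -0.95).

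Lists of general liver functions were near the background of 1.06% called. There were 0 calls among 12 cytochrome P450 and drug metabolism genes, 12 lipoprotein genes, 16 complement and coagulation genes, 14 acute phase genes, 17 clock genes and 12 glucocorticoid response genes, with medians between -0.06 and 0.07. Of 18 liver transcription factors Prox1 rose (1.08, adjusted p = 0.0485), and Foxa2 differed by 0.72 (adjusted p = 0.0976). YAP and TEAD targets and actin genes, markers of flattening in culture, gave 0 calls of 10 and of 12, with medians of -0.28 and -0.23. Ankrd1 and Ccn2, the lowest of them, differed by -1.74 and -1.22 (adjusted p = 0.136 and 0.178).

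Markers of the other liver cell types were low and did not pass. The median signal of the 10 tested Kupffer cell and macrophage markers was 3.21 and 3.25 with glucagon plus GW4064, against 3.28 and 3.21 with GW4064, near the filter level. For 11 sinusoidal endothelium markers it was 4.38 and 3.76 with glucagon plus GW4064, against 4.59 and 3.91 with GW4064, and for 6 stellate cell markers 4.60 and 4.63, against 4.59 and 4.61. The collagen genes Col1a1 and Col3a1 of stellate cells, Cd5l of Kupffer cells and Cd3e of T cells did not pass the filter on dim probe sets. The hepatocyte markers stood at 11.36 and 11.77 with glucagon plus GW4064, against 11.13 and 11.71 with GW4064. Sox9, a bile duct and progenitor gene, differed by -2.40 in experiment 1 and by -0.38 in experiment 2 (limma adjusted p = 0.207). Without the GW4064 array of experiment 2 its difference was -2.29, in a fit that leaves 1 GW4064 array. In such bulk samples fewer cells of a type and less RNA per cell cannot be told apart.

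Set beside it, glucagon against DMSO, which compares other arrays of the same 2 cell pools, raised 89 genes and lowered 39 (0.643% and 0.282%). Both comparisons came from the same fit, with a residual variance per gene estimated from all arrays. The calls of the comparisons are therefore not independent, and a gene with a low variance is favoured in both. With the DMSO array of either experiment left out, the 97 rises with GW4064 became 46 and the 50 falls became 10. The 69 genes that rose in both settings are 71.1% of the rises with GW4064 and 77.5% of those against DMSO, and the 29 shared falls are 58% and 74.4%. None went in opposite directions. Of the 28 rises not called against DMSO, 27 were positive there, and all 21 such falls were negative there. The median of the 97 rises was 1.27 with GW4064 and 1.24 against DMSO, and that of the 50 falls was -0.93 in both.

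**Figure D5:**
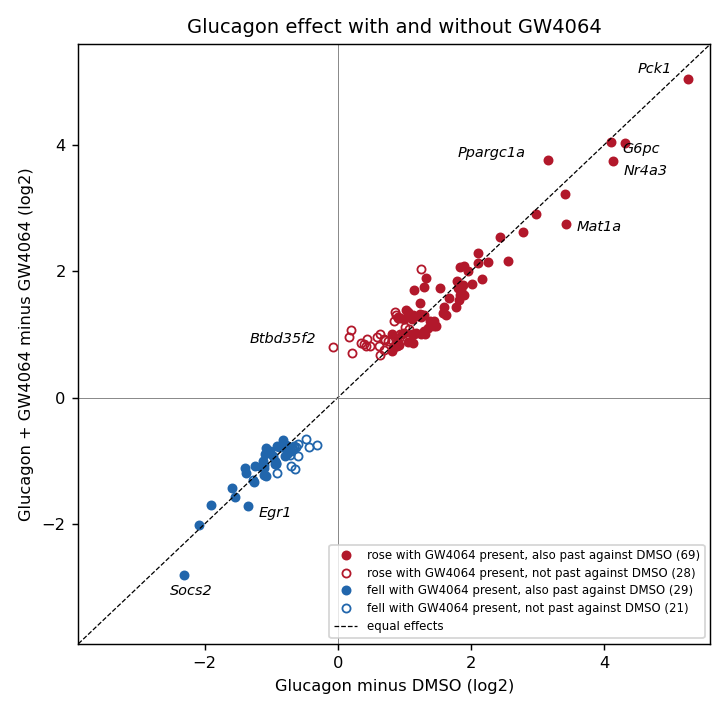
Glucagon effect without GW4064 (glucagon minus DMSO, log2, x axis) and with it (glucagon plus GW4064 minus GW4064, log2, y axis) for the 147 genes called with GW4064. Filled points also passed against DMSO, open points did not, and the dashed line marks equal effects. Most points lie near the line, and Btbd35f2 lies at -0.08 against DMSO and 0.80 with GW4064. Its GW4064 levels, 4.80 and 4.82, were the low ones. It stood at 5.55 and 5.67 with glucagon plus GW4064, 5.61 and 5.38 with glucagon, and 5.63 and 5.53 with DMSO. Defa34 was likewise lowest with GW4064 (4.11 and 4.11, against 4.75 and 4.72 with DMSO).

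The difference between the 2 glucagon effects was tested directly. With limma 0 of 13845 genes passed (smallest adjusted p = 1), with and without the block. At an unadjusted limma p below 0.05 there were 332 of the 13845 genes, or 149 without the block. Both counts are below the share of 0.05 that this threshold passes when no gene differs. The 95% interval of this difference was wide, with a median of 0.44 on either side among the 147 called genes, so that a failed test does not show equal effects. For Pck1 the difference of effects was -0.21 (95% interval -1.11 to 0.69), for G6pc -0.06 (-0.70 to 0.58), and for Slc25a15 -0.07 (-0.46 to 0.33). Ppargc1a had 0.59 (adjusted p = 1), a value with no exact size or interval, since in experiment 1 both its GW4064 and its DMSO level were below the filter level. It stood at 6.91 and 7.59 with glucagon plus GW4064 and 6.54 and 7.03 with glucagon, against 3.08 and 3.90 with GW4064 and 3.13 and 4.11 with DMSO. Mat1a had -0.68 (-1.51 to 0.15) and Socs2 -0.50 (-1.20 to 0.20). With predicted and olfactory receptor genes left out, the smallest unadjusted p-values were those of Btbd35f2 (difference of effects 0.88), Lrrc61 (1.37), Defa34 (0.79), Zfp869 (-0.64) and Sly (-0.76), and limma's adjusted p was 1 for each.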

How the data were processed

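The authors deposited log2 signal values per probe set, processed in GeneSpring per the labels' design text. The software version, normalization steps and genome build are not given in the sources used, and a log2 scale was inferred from the values' range. Of 41345 probe sets, 23521 had 1 gene symbol in the platform annotation. Probe sets above the 40th percentile of their array on at least 2 arrays were kept, and the brightest stood for its gene, which left 13845 genes. Two-sided tests used limma 3.58.1 in R 4.3.3 on all 8 arrays, with 1 mean per group and the experiment as a block (3 residual and 3.58 prior degrees of freedom), and Benjamini-Hochberg adjustment over the 13845 genes of a comparison. SE and intervals come from that fit. The labels give each experiment its own cell pool. As a check, same-numbered arrays deviated together from their group means (r between 0.35 and 0.62 over 6 group pairs). The steps were also tested on simulated data. The simulated noise was independent and had the same spread on every array for a gene, so no single array stood apart. That run does not cover the shifts seen when an array is left out.

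Named genes were the 15 largest rises and falls, up to 3 genes of each list with the smallest p, a panel, and, where none passed, the 5 smallest p. Other list members were named after their values were seen. Predicted genes, 8 rises and 1 fall, are counted and not named. The members, the 37 gene lists, the tests and the panel were chosen with earlier results of these data known. Alternatives were no block, a random block, other normalizations, filters, prior variances, array weights, only the groups compared, all probe sets, and each array left out.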

Additional observations from a re-analysis of the deposited data

How the results depend on the processing

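The counts depend on the treatment of the pairing and on single arrays. With GW4064 present, 97 genes rose and 50 fell. Without the replicate block 22 and 1 did, and with the experiment as a random block 56 and 19. With only the 4 arrays compared the counts were 53 and 9, and with array weights 53 and 13. The weights came out equal for the 2 arrays of every group, lowest for GW4064 (0.339 for both). They therefore cannot tell the 2 GW4064 arrays apart. With a filter at the 60th percentile 80 fell, and with a trended prior variance 102. Leaving out 1 array in turn gave 6 to 1170 rises and 0 to 770 falls: 6 and 0 without either array of glucagon plus GW4064, 46 and 10 without either DMSO array, 56 and 16 without either glucagon array, 88 and 102 without the GW4064 array of experiment 2, and 1170 and 770 without that of experiment 1. The 0 differences between the glucagon effects became 261 in that last case and stayed at 0 in the other alternatives, of which the 4-array setting cannot give a value. For glucagon against DMSO the counts of 89 and 39 became 15 and 1 without the block, 50 and 9 with a random block, 136 and 105 with a trended prior, 224 and 255 with array weights, and 10 to 204 and 0 to 234 with 1 array left out. The cause of these shifts was not tested. Of 51 named called genes, 5 passed in all 18 alternatives: Pck1, G6pc, Ppargc1a, Slc25a15 and Aass. None of the 51 reversed its direction.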

Other observations

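Among the calls outside the gene lists were genes with known liver roles. Gpcpd1, a glycerophosphocholine phosphodiesterase, rose by 2.01 (1.80 in experiment 1, 2.23 in experiment 2). Avpr1a, the hepatic vasopressin receptor, rose by 1.31, and Acmsd, which diverts tryptophan breakdown away from NAD, by 1.01. Slc40a1, the iron exporter ferroportin, had a difference of -1.10. Without the GW4064 array of experiment 2, Avpr1a did not pass (limma adjusted p = 0.0521). These genes were picked after their values were seen.

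In the RefSeq order of protein-coding genes, 5 pairs of direct neighbours were among the called genes, all with both members up. They were Aass and Fezf1 (2.63 and 2.29), Slc25a15 and Mrps31 (2.91 and 1.38), Tpbgl and Slco2b1 (2.09 and 1.71), Grb14 and Cobll1 (0.95 and 1.49), and Aldh1a1 and Aldh1a7 (0.78 and 1.01). How many such pairs other sets of genes hold was not computed.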
